A study of Homo sapiens and Mus musculus with 18 samples.

Results

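Replicate 1 of MesoT was set against replicate 2 at both sampling days, which takes 4 of the 18 samples of the series. MesoT is a mesenchymal form of mesothelium made from WA09, a human embryonic stem cell line. Per the labels, WA09 cells were given WNT3A and BMP4 for 4 days to make splanchnic mesoderm, and then WNT3A, a lower amount of BMP4 and all-trans retinoic acid until day 18 or day 22. All 4 libraries shared the line, the agents and the stated range of stem cell passages, 47 to 60. The members were chosen by their labels alone: day 18 replicate 1 and day 22 replicate 1 on one side, day 18 replicate 2 and day 22 replicate 2 on the other. The question was which genes differed between replicates of 1 protocol at both days. The labels do not say whether replicates were separate cultures, nor whether the same number at the 2 days marks 1 culture, so p-values measure only the spread between these samples, which may be technical. They also give 2 read lengths and 2 sequencing facilities for the RNA without saying which sample went where, and name collagenase, TrypLE or both for collecting MesoT; culture, collection and sequencing run cannot be told apart here.

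Mesothelium is the cell layer that covers the inner organs and lines the body cavities; its cells can lose their epithelial form and become fibroblast-like or smooth muscle-like cells that lay down matrix. The protein p53 is a transcription factor that MDM2 keeps at a low level; when it is stabilised it switches on genes for cell cycle arrest, DNA repair and cell death. H19 is an imprinted long noncoding RNA that is abundant in fetal mesoderm and lies beside IGF2, a growth factor gene imprinted the opposite way. Actin, myosin and actin-binding proteins such as ACTA2, TAGLN and CNN1 build the contractile apparatus of smooth muscle and myofibroblasts.

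The data were whole-number counts per gene from poly-A RNA. The 4 MesoT libraries held between 24137663 and 30389378 counts and the 2 libraries of MesoT-derived MLC, in the same deposited table, 31433961 and 31435480. MesoT-derived MLC are epithelial mesothelium-like cells made by replating MesoT with retinoic acid and SB431542, a TGF-beta receptor inhibitor; their pair was fitted together with MesoT to estimate the spread. It carried no replicate term, so a gene that differs within that pair is less readily called, and small differences of called genes there are in part fixed by the choice of genes. Levels are CPM, TMM-scaled counts per 1e+06 counts of a library, and a log2 fold change is replicate 1 over replicate 2 with its standard error (SE). A gene is said to have passed the test when its Benjamini-Hochberg adjusted p from edgeR's quasi-likelihood test was under 0.05 over all 22316 genes tested. Ribosomal protein genes took 4.34% and 5.14% of counts in replicate 1 at day 18 and day 22 and 6.18% and 7.72% in replicate 2, and mitochondrially encoded genes between 2.66% and 3.14% in the 4 libraries; the part of this difference in the results was not tested. Mesothelial markers were present at unequal levels: WT1 lay between 32.4 and 94.4 CPM and UPK3B between 19.4 and 42.5 CPM in the 4 MesoT libraries, while MSLN, which encodes the surface protein mesothelin, reached at most 1.72 CPM.

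Replicates 1 and 2 of MesoT differed in genes of several kinds. H19, 29 of 55 targets of p53, 5 of 20 contractile genes, 6 of 34 matrix genes and the ligand genes INHBA and BMP6 were higher in replicate 1; CHRDL1, a secreted BMP antagonist, the Hedgehog targets GLI1 and PTCH1 and the MHC class II chaperone CD74 were lower. In these bulk samples fewer cells of a type and less RNA per cell cannot be told apart. Over all genes 227 of 22316 (1.02%) passed the test, 167 (0.748%) higher and 60 (0.269%) lower in replicate 1. The median absolute log2 fold change among the 227 was 2.26. The median with its sign over all genes was -0.06, which is no measure of size. Of the 227, 225 were at least 1 log2 apart in the same direction at both days, 166 higher and 59 lower. The exceptions were CHM, a Rab escort protein, with 0.97 at day 22, and DECR1, an enzyme of fatty acid oxidation, with -0.98. The test takes the 2 days as repeats of 1 replicate difference, so it in part fixes this agreement between days. Whatever their p, 558 genes (2.5%) were at least 1 log2 higher and 685 (3.07%) at least 1 log2 lower at both days, and 115 were as far apart in opposite directions. The 2 days were described by a Pearson correlation of 0.56 between their replicate differences (Spearman 0.46, over the 22316 genes, which are not independent and share each library's depth and scaling). The corresponding difference in MesoT-derived MLC had a correlation of -0.01 with day 18 and -0.06 with day 22.

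**Figure D1:**
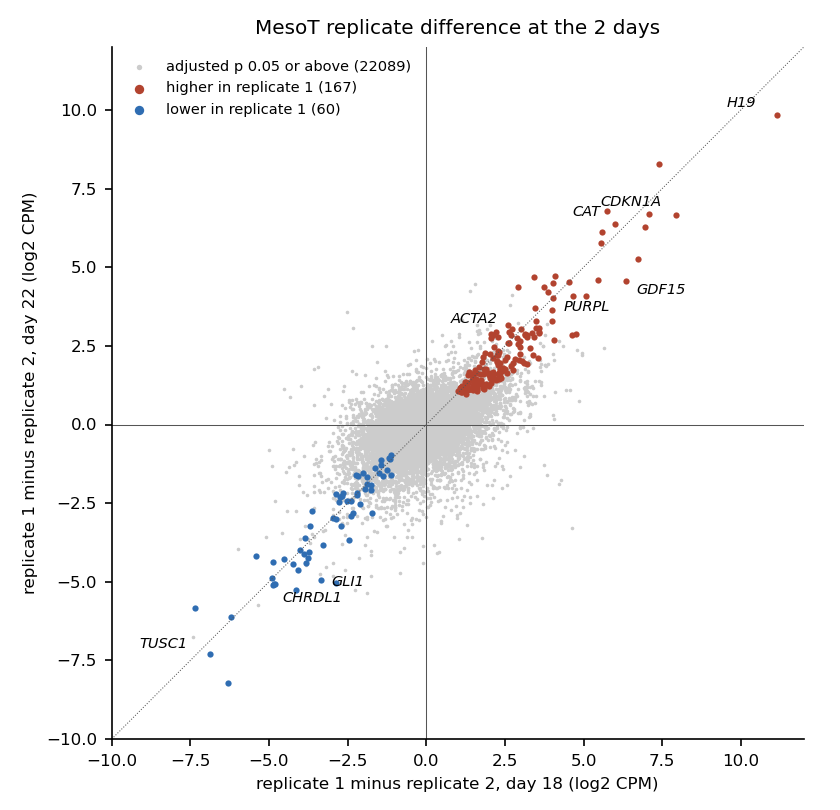
Each point is 1 of the 22316 genes tested, with the log2 CPM difference of replicate 1 minus replicate 2 at day 18 on the x axis and at day 22 on the y axis. The 167 genes that passed the test higher in replicate 1 (red) and the 60 lower (blue) lie near the dotted line of equal differences, with H19 at 11.15 and 9.84. The test takes the 2 days as repeats, so it in part fixes this nearness to the line.

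These calls rested on all 4 MesoT libraries: without any 1 of them no gene passed, with 1526 to 3173 genes at an unadjusted p under 0.05 in edgeR. No gene passed without a filter on low counts either (4398 unadjusted), while 1330 did when only the 4 MesoT libraries were fitted, all 227 among them, and 1046 or 1396 without MesoT-derived MLC replicate 1 or replicate 2. A fit without 1 MesoT library sets 1 library against 1 for the replicate term, with the spread taken from the MesoT-derived MLC pair. Its loss of calls was thus in part fixed by the design and points to no single library. Between the days themselves, day 22 against day 18, 0 of the 22316 genes (0%) passed in the same edgeR fit and 572 had an unadjusted p under 0.05. DESeq2 called 1 gene and limma voom 0.

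The level of H19 (ENSG00000130600) was 9320 CPM in day 18 replicate 1 and 6390 in day 22 replicate 1, against 4.04 and 6.90 CPM in replicate 2 at the same days. The replicate 1 libraries thus held H19 as one of their most abundant RNAs and the replicate 2 libraries held little of it, with no overlap (log2 fold change 10.50 ± 0.80 SE, edgeR adjusted p = 0.0126). In MesoT-derived MLC it stood at 104 and 38.3 CPM, between the MesoT replicates. IGF2, its neighbour, was at 3762 and 3082 CPM in replicate 1 and 4478 and 4919 in replicate 2; the difference did not pass the test (-0.46 ± 0.46, adjusted p = 0.627). H19 was the only one of 15 maternally expressed imprinted genes tested that passed (6.67%, against 1.02% of all genes). CDKN1C, a cyclin-dependent kinase inhibitor, was at 53.5 and 56.7 CPM in replicate 1 and 40.4 and 45.1 in replicate 2. Of 19 paternally expressed genes tested, NNAT, a small membrane proteolipid, alone passed (5.26%, against 1.02% of all genes). NNAT was at 21.1 and 29.8 CPM in replicate 1 against 1.91 and 1.09 in replicate 2 (4.09 ± 0.39, edgeR adjusted p = 0.0205). DLK1, which encodes a Notch-like surface protein of progenitors, was at 534 and 350 CPM against 70.2 and 37.5 and did not pass (adjusted p = 0.0911).

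Known targets of p53 were the group with the most genes higher in replicate 1. A list of 56 targets was written after the values had been seen, so its count describes these libraries and is no independent evidence. Of the 55 tested, 29 (52.7%) passed, all higher in replicate 1, where 0.748% of all genes did; their log2 fold changes ran from 1.25 to 7.32, and the median over the 55 was 1.77 against -0.06 over all genes. The 29 differences were larger at day 18 than at day 22 in every case, as were those of 123 of all 167 higher genes, with a median of 2.76 at day 18 and 1.95 at day 22 over the 29.

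The upstream sequences below show at least 1 half-site of the binding motif of p53 for 5 of these 29 targets. The motif searched was the p53 half-site, which reads the same on both strands, in RefSeq promoter windows of 300 bases (GRCh38.p14). It was found in 6.63% of the 35116 windows. Of the 29 targets, 23 had a window and 6 of those (26.1%) held the half-site in at least 1 window. Among the 13570 tested genes with a window the share was 7.86%. The 29 were listed because they are known p53 targets, so this contrast says nothing about the replicates. The sixth gene with a half-site was DDB2, with its match after the start. Only the 150 bases before the start are printed, in lower case, 5′ to 3′, with the half-sites in capitals.

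PURPL, chr5:27472142-27472291, plus strand: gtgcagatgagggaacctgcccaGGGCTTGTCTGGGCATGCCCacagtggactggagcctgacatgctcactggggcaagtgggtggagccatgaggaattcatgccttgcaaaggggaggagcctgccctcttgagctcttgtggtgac
AEN, chr15:88621190-88621339, plus strand: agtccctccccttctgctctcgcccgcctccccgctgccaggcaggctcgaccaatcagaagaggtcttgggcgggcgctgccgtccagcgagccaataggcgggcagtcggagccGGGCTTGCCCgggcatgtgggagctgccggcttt
RPS27L, chr15:63157478-63157627, minus strand: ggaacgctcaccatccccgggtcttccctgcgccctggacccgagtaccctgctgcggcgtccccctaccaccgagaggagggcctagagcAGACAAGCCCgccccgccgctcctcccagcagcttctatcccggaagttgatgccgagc
FDXR, chr17:74872995-74873144, minus strand: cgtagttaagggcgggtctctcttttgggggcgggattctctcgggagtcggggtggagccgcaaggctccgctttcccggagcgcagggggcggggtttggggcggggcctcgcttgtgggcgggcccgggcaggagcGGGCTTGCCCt
FAS, chr10:88991281-88991430, plus strand: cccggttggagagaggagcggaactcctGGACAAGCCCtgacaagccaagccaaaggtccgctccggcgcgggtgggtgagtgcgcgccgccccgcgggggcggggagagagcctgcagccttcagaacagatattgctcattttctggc

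PURPL held 2 half-sites with no gap between them, from base -127 to -108 before the start, an arrangement present in 6 of the 35116 windows. The single half-sites began at -34 in AEN, -59 in RPS27L, -11 in FDXR and -122 at 1 of 3 starts of FAS. CDKN1A, MDM2 and ZMAT3 had no match in these windows, which says only that the letters are not there.

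Among targets that stop the cell cycle, CDKN1A (ENSG00000124762), the inhibitor of cyclin-dependent kinases known as p21, was at 842 and 383 CPM in replicate 1 and at 3.38 and 3.71 in replicate 2. The groups lay far apart, with counts of 22771 and 11503 against 92 and 102 (7.32 ± 0.39, edgeR adjusted p = 0.00769). SESN2, a stress-response sestrin, was at 99.4 and 53.7 CPM against 25.0 and 17.8 (1.79 ± 0.21, adjusted p = 0.0343). The other 7 arrest genes tested did not pass; GADD45A had a log2 fold change of 1.28 (adjusted p = 0.391), BTG2 1.36 (0.383) and CCNG1 0.57 (0.18).

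Of 5 genes that feed back on p53 or its pathway, 4 passed, all higher in replicate 1 (80%, against 0.748% of all genes). MDM2, the ubiquitin ligase that degrades p53, was at 326 and 229 CPM in replicate 1 and 64.0 and 58.6 in replicate 2 (2.16 ± 0.18, adjusted p = 0.0156). PPM1D, a phosphatase that damps the response, was at 80.0 and 61.9 CPM against 31.6 and 24.9, FBXW7, a ubiquitin ligase subunit, at 60.2 and 52.8 against 23.2 and 24.1, and PHLDA3, an inhibitor of AKT, at 195 and 110 against 16.7 and 25.0. In each of the 4 both replicate 1 libraries lay above both replicate 2 libraries, as they did for 5766 of all 22316 genes. For genes that passed, the choice of genes by the test in part fixes this.

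Of 15 genes of cell death, 7 passed, all higher in replicate 1 (46.7%, against 0.748% of all genes). AEN, a nuclease of apoptosis, was at 140 and 86.3 CPM against 15.2 and 12.1 (3.02 ± 0.22, edgeR adjusted p = 0.0114). EDA2R, a receptor of the tumour necrosis factor receptor family, was at 80.9 and 55.9 CPM against 0.59 and 0.65 (6.75 ± 0.55, edgeR adjusted p = 0.0152). The death receptor gene FAS was at 37.0 and 19.2 CPM against 4.44 and 4.69, and the receptors of the ligand TRAIL encoded by TNFRSF10B and TNFRSF10D had log2 fold changes of 2.12 and 2.36. BAX, which permeabilises mitochondria, was at 163 and 110 CPM against 36.9 and 36.5, and BBC3, its activator known as PUMA, at 35.7 and 21.2 against 4.11 and 5.41. PERP, with 0.50 (adjusted p = 0.347), and PMAIP1, with 0.80 (adjusted p = 0.288), did not pass.

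Among repair and metabolic targets, DDB2, which recognises ultraviolet damage, POLH, a polymerase that copies past lesions, and RRM2B, a ribonucleotide reductase subunit, had log2 fold changes of 1.94, 1.77 and 1.89. DRAM1, a lysosomal modulator of autophagy, was at 85.8 and 60.5 CPM in replicate 1 and 5.36 and 6.14 in replicate 2 (3.65 ± 0.23, adjusted p = 0.00863). SPATA18, a factor of mitochondrial quality control, was at 43.4 and 30.4 CPM against 1.65 and 1.71 (4.43 ± 0.26, adjusted p = 0.00774), and FDXR, a mitochondrial reductase, at 47.2 and 26.5 against 6.86 and 7.96. TIGAR, which diverts sugar from glycolysis, passed with 1.37, while GLS2, a glutaminase, had 0.01 (adjusted p = 0.989).

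In the last group, of noncoding RNAs, secreted factors and other targets, 9 of 13 passed, all higher in replicate 1 (69.2%, against 0.748% of all genes). PURPL, a noncoding RNA that is itself induced by p53, was at 57.8 and 60.0 CPM against 3.45 and 3.63 (4.05 ± 0.20, adjusted p = 0.00769); a second deposited counting of day 18 gave 44.7 and 0 CPM. ZMAT3, an RNA-binding zinc finger protein, was at 337 and 260 CPM against 32.7 and 34.3 (3.14 ± 0.26, adjusted p = 0.0154), and RPS27L, a paralogue of a ribosomal protein whose reads may be shared with it, at 179 and 138 against 30.2 and 31.2. GDF15, a stress cytokine, was at 38.4 and 14.4 CPM against 0.40 and 0.55, and INPP5D, an inositol phosphatase usually found in blood cells, at 58.5 and 28.8 against 0.48 and 0.69. ASCC3, IKBIP, PTP4A1 and CSF1 made up the rest. Both MesoT-derived MLC libraries lay below both replicate 1 libraries for 27 of the 29 targets, as they did for 139 of all 167 genes higher in replicate 1; the median replicate difference of the 29 in that pair was -0.02. The second counting of day 18 gave the 29 a median difference of 2.59, from 1.07 to 9.82.

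**Figure D2:**
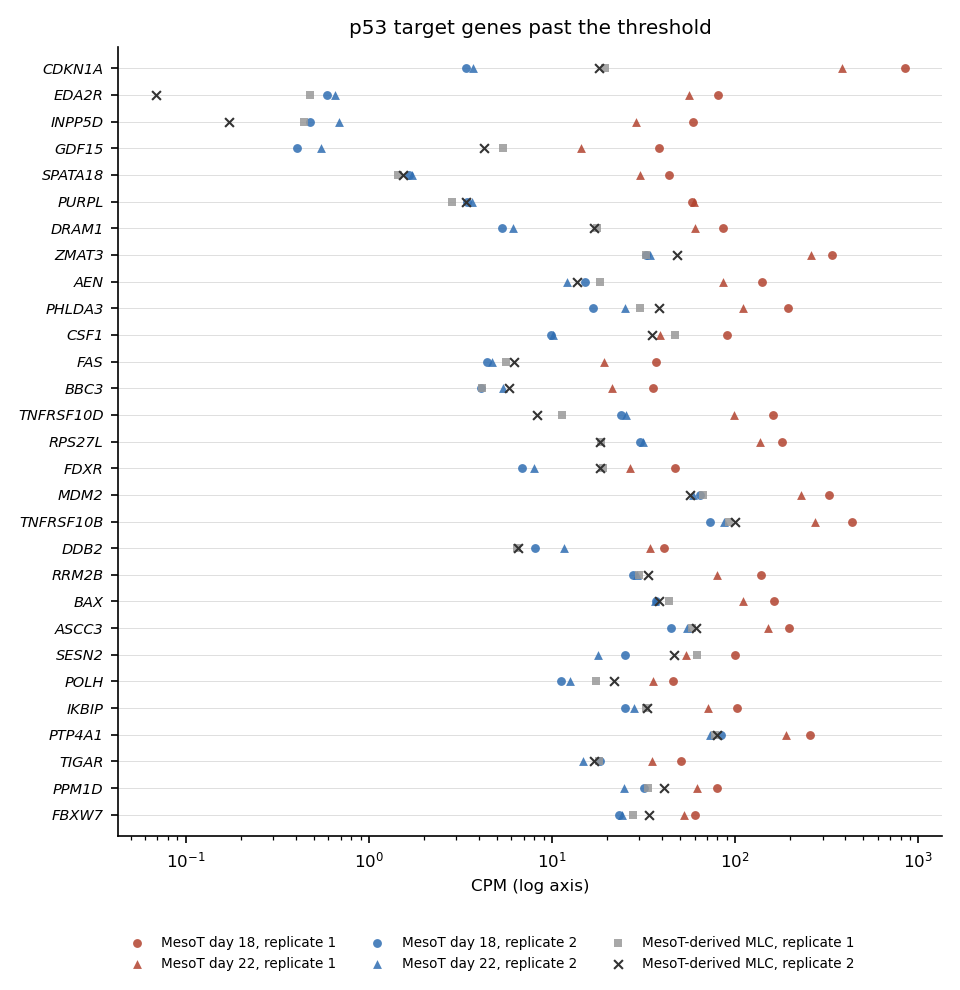
CPM on a log axis for the 29 p53 targets that passed the test, in the 4 MesoT libraries and the 2 MesoT-derived MLC libraries. In every target the red points of replicate 1 lie to the right of the blue points of replicate 2, which the choice of genes by the test in part fixes. The same order held for 5766 of all 22316 genes.

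Of 20 contractile genes tested, 6 passed (30.0%, against 1.02% of all genes), 5 higher and 1 lower, and the list's median log2 fold change was 1.44. ACTA2, smooth muscle actin, was at 432 and 540 CPM in replicate 1 and 69.5 and 69.6 in replicate 2, with no overlap (2.80 ± 0.19, edgeR adjusted p = 0.0104). TAGLN, an actin-binding protein of smooth muscle, was at 813 and 685 CPM against 108 and 117 (2.73 ± 0.26, adjusted p = 0.021), and CNN1, calponin, at 128 and 118 against 26.2 and 31.8 (2.09 ± 0.17, adjusted p = 0.0155). MYOCD, the coactivator of SRF that drives smooth muscle genes, was at 48.9 and 61.2 CPM against 11.19 and 8.54 (2.48 ± 0.23, adjusted p = 0.0185), and MYH11, smooth muscle myosin, at 7.36 and 20.4 against 1.54 and 2.58 (2.63, adjusted p = 0.0351). CSRP1, a LIM protein of the actin cytoskeleton, went the other way at 7.76 and 7.73 CPM against 44.5 and 42.3 (-2.49 ± 0.26, adjusted p = 0.0249). The other 14 did not pass; PLN, an inhibitor of the calcium pump, had -1.11 and SYNPO2 -0.52, and ACTG2, DES, TPM1 and MYLK, with 1.96, 0.59, 0.75 and 1.07, lay above 0. In the MesoT-derived MLC libraries ACTA2 was at 39.1 and 45.3 CPM and TAGLN at 90.3 and 136. Of 20 targets of SRF and YAP, THBS1 (1.95), a secreted matricellular glycoprotein, and ANKRD1 (1.65) passed (10%, against 1.02% of all genes).

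Of 34 genes of small proteoglycans and matrix tested, 6 passed, all higher in replicate 1 (17.6%, against 0.748% of all genes), and of 24 collagens 2 did. MGP, an inhibitor of calcification, was at 326 and 317 CPM in replicate 1 and 46.0 and 75.1 in replicate 2 (2.45 ± 0.24, edgeR adjusted p = 0.0222). LOX, which cross-links collagen and elastin, was at 114 and 101 CPM against 14.3 and 18.2 (2.73 ± 0.23, adjusted p = 0.0155), and FBLN5, an elastic fibre protein, at 87.8 and 95.4 against 25.3 and 21.5 (1.97 ± 0.17, adjusted p = 0.0169). CCDC80, MATN2 and FBN1 passed with 2.04, 1.55 and 1.51. The other 28 did not pass, and EFEMP1, ELN and POSTN among them had values below 0 (-0.79, -0.70 and -0.48). COL12A1, a collagen that decorates fibrils, was at 120 and 172 CPM against 24.9 and 24.9, and COL15A1, of basement membranes, at 50.8 and 27.8 against 9.50 and 8.50.

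COL1A1, the main chain of fibrillar collagen I, was at 11080 and 3381 CPM in replicate 1 and 2399 and 1981 in replicate 2. Its libraries did not overlap, but the gap was 2.21 log2 at day 18 and 0.77 at day 22 and did not pass the test (1.49 ± 0.46, adjusted p = 0.175). COL3A1 likewise did not pass (0.68, adjusted p = 0.298). The 2 chains of basement membrane collagen IV encoded side by side on the X chromosome both passed: COL4A5 was at 784 and 572 CPM against 165 and 143 (2.13 ± 0.23, adjusted p = 0.0249) and COL4A6 at 316 and 221 against 72.8 and 68.9 (1.90 ± 0.21, adjusted p = 0.026). The abundant chains COL4A1 and COL4A2, with 1.71 and 1.43, did not (adjusted p = 0.0801 and 0.0886). Of the adhesion receptors, ITGB1, the common beta chain of matrix-binding integrins, was at 1466 and 1033 CPM against 476 and 430 (1.45 ± 0.20, adjusted p = 0.0455); it was picked after its values were seen.

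**Figure D3:**
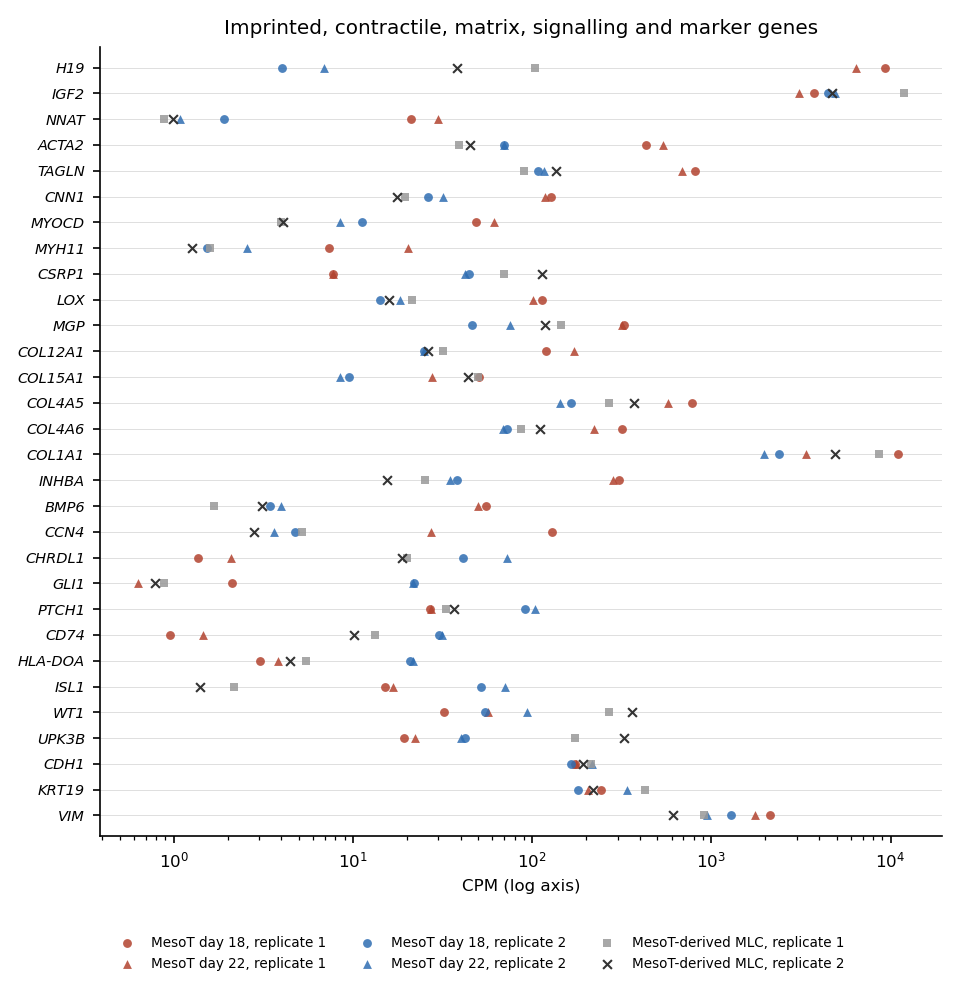
CPM on a log axis for imprinted, contractile, matrix, signalling and marker genes in the 4 MesoT and the 2 MesoT-derived MLC libraries. Replicate 1 lies to the right of replicate 2 from ACTA2 to MYH11 and to its left for CSRP1, CHRDL1, GLI1, PTCH1, CD74, HLA-DOA and ISL1; for CDH1 and KRT19 the replicates overlap.

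Secreted signals differed as well. INHBA, the subunit of activin A, was the one of 18 TGF-beta response genes tested that passed (5.56%, against 1.02% of all genes). It was at 304 and 284 CPM in replicate 1 and 38.0 and 34.7 in replicate 2 (3.01 ± 0.26, edgeR adjusted p = 0.0169). BMP6, a bone morphogenetic protein, was at 55.6 and 50.1 CPM against 3.45 and 3.96 (3.83 ± 0.33, adjusted p = 0.0158). CHRDL1, which binds such ligands and blocks them, was at 1.37 and 2.10 CPM in replicate 1 and at 41.3 and 72.3 in replicate 2 (-5.01 ± 0.19, adjusted p = 0.00619). BMP6 and CHRDL1 thus lay in opposite directions. NOG, another BMP antagonist, lay on the side of BMP6 and did not pass (2.84 ± 0.53, edgeR adjusted p = 0.0769). None of 18 BMP response genes and none of 18 WNT response genes tested passed, against 1.02% of all genes. The medians of these 2 lists were 0.49 and 0.30.

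CCN4, a matricellular protein named for its induction by WNT signals, was at 129 and 27.3 CPM against 4.73 and 3.63 (3.86 ± 0.54, adjusted p = 0.047). ANGPTL4, a secreted inhibitor of lipoprotein lipase, was at 59.0 and 29.1 CPM against 2.31 and 3.96 (3.75 ± 0.46, adjusted p = 0.0351). For CCN4 the gap was wider at day 18, the day with the higher level in replicate 1, and the same held for ANGPTL4.

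PTGS2, the inducible cyclooxygenase, was at 83.1 and 48.5 CPM in replicate 1 and 6.93 and 5.67 in replicate 2 (3.34 ± 0.35, adjusted p = 0.0231). It belongs to a list of secreted inflammatory factors and their enzymes that was also written after values were seen: 8 of 18 tested passed, all higher in replicate 1 (44.4%, against 0.748% of all genes), with a list median of 2.79. CXCL8, the neutrophil chemokine, was at 12.7 and 16.6 CPM against 0.22 and 0.62 (5.19 ± 0.38, adjusted p = 0.0116), and IL11, a fibrogenic cytokine, at 48.9 and 34.1 against 9.65 and 10.4 (2.02 ± 0.22, adjusted p = 0.0274). CXCL1, CXCL10 and MMP10 passed at levels of at most 6.70 CPM. IL6 was under 1 CPM in all 4 libraries, and CCL2 and LIF, with 2.29 and 2.90, did not pass (adjusted p = 0.0845 and 0.114). Interferon response genes, of which none of 22 passed against 1.02% of all genes, had a median of -0.16.

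Genes lower in replicate 1 included targets of Hedgehog signalling, in which the transcription factor GLI1 and the receptor PTCH1 are themselves induced by the pathway. PTCH1 was at 26.8 and 27.4 CPM in replicate 1 and 91.0 and 103 in replicate 2 (-1.84 ± 0.15, edgeR adjusted p = 0.0155), and GLI1 at 2.11 and 0.63 against 22.0 and 21.7 (-4.16 ± 0.46, adjusted p = 0.028). They were 2 of 13 pathway genes tested (15.4%, against 0.269% of all genes lower) on a list made after values were seen. The ligand gene SHH was at 0.67 and 0.20 CPM against 7.37 and 11.5 and did not pass (adjusted p = 0.0829). The relay genes SMO and SUFU had log2 fold changes of 0.04 and 0.08.

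CD74, the invariant chain of MHC class II, was at 0.96 and 1.47 CPM in replicate 1 and 30.2 and 31.6 in replicate 2 (-4.68 ± 0.28, adjusted p = 0.00774), and HLA-DOA, a class II modulator, at 3.03 and 3.83 against 20.9 and 21.5 (-2.64 ± 0.25, adjusted p = 0.0205). They were 2 of 8 class II genes tested (25%, against 0.269% of all genes lower), a list also made after values were seen, and the other 6 did not pass; CIITA, their master regulator, was at 5.10 and 5.90 CPM against 8.29 and 6.39 (adjusted p = 0.465). ISL1, a LIM homeodomain factor of lateral mesoderm and amnion, was at 15.2 and 16.7 CPM against 51.9 and 70.6 (-1.93 ± 0.23, adjusted p = 0.0349). Among 23 HOX genes of groups 6 to 13, HOXC10 alone passed (4.35%, against 1.02% of all genes). It was at 14.3 and 9.70 CPM against 1.14 and 1.199 (3.33 ± 0.40, edgeR adjusted p = 0.0349). HOXC6, HOXC8, HOXC9, HOXC11 and HOXC13 lay on the same side without passing (1.38, 2.86, 1.61, 1.64 and 2.33). HOXD12 and HOXD13 lay on the other side and did not pass either (-4.96 and -2.62). ALDH1A1, which makes retinoic acid, was at 144 and 219 CPM against 23.5 and 36.2 (2.61, edgeR adjusted p = 0.0349) and was chosen after its values were seen. None of 17 retinoic acid response genes passed, against 1.02% of all genes. The rest of the 10 lowest by the naming rule were YPEL3-DT, a divergent transcript, ZNF528 and ZNF135, zinc finger genes, and CEBPZOS, a small gene opposite CEBPZ, with log2 fold changes of -3.92, -1.92, -1.92 and -1.79; the strand setting of the counting is not given in the sources used here, so reads of YPEL3-DT and CEBPZOS may come from their neighbours.

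Some genes were present in 1 replicate and nearly absent from the other at both days. Of the genes that passed, 32 were at least 4 log2 apart at both days, 18 higher and 14 lower in replicate 1. CAT, catalase, which breaks down hydrogen peroxide, had 998 and 1342 counts in replicate 1 and 14 and 13 in replicate 2, or 36.9 and 44.7 CPM against 0.51 and 0.47 (6.35 ± 0.35, edgeR adjusted p = 0.00769). CRYZ, a quinone reductase, had 393 and 559 counts against 1 and 3, and its neighbour TYW3, an enzyme of transfer RNA modification, 329 and 445 against 5 and 4. ZNF248, a zinc finger gene, had 487 and 655 counts against 1 and 0. Its ratio of replicate 2 to replicate 1 was 0.000912, with an exact 95% interval from 2.31e-05 to 0.00509 that covers counting error only. CRYZ, TYW3 and ZNF248 were also near 0 in MesoT-derived MLC, so they passed the filter on low counts only through replicate 1. That filter in part fixes their contrast, and no CPM value was available for them in MesoT FCS or MLC.

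In the other direction TUSC1, a gene without introns, had 0 counts in both replicate 1 libraries and 221 and 303 in replicate 2, so it was at least 182-fold lower in replicate 1 with 3 counts over the group as the bound. ZNF502, another zinc finger gene, had 0 counts against 140 and 134, at least 95.1-fold lower. MAOA, monoamine oxidase A, was at 0.78 and 0.63 CPM against 14.4 and 17.2 (-4.48 ± 0.28, adjusted p = 0.00863), and SYT4, a synaptotagmin, had 3 and 3 counts against 392 and 1399. In the MesoT-derived MLC libraries CAT, CRYZ, TYW3 and ZNF248 stood at 0.24 CPM or less, near replicate 2. TUSC1 at 12.3 and 8.63 CPM, ZNF502 at 4.03 and 3.87 and MAOA at 11.3 and 10.9 were near replicate 2 again. SYT4, at 0.03 and 0 CPM, lay near replicate 1, so it passed the filter on low counts only through replicate 2.

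**Figure D4:**
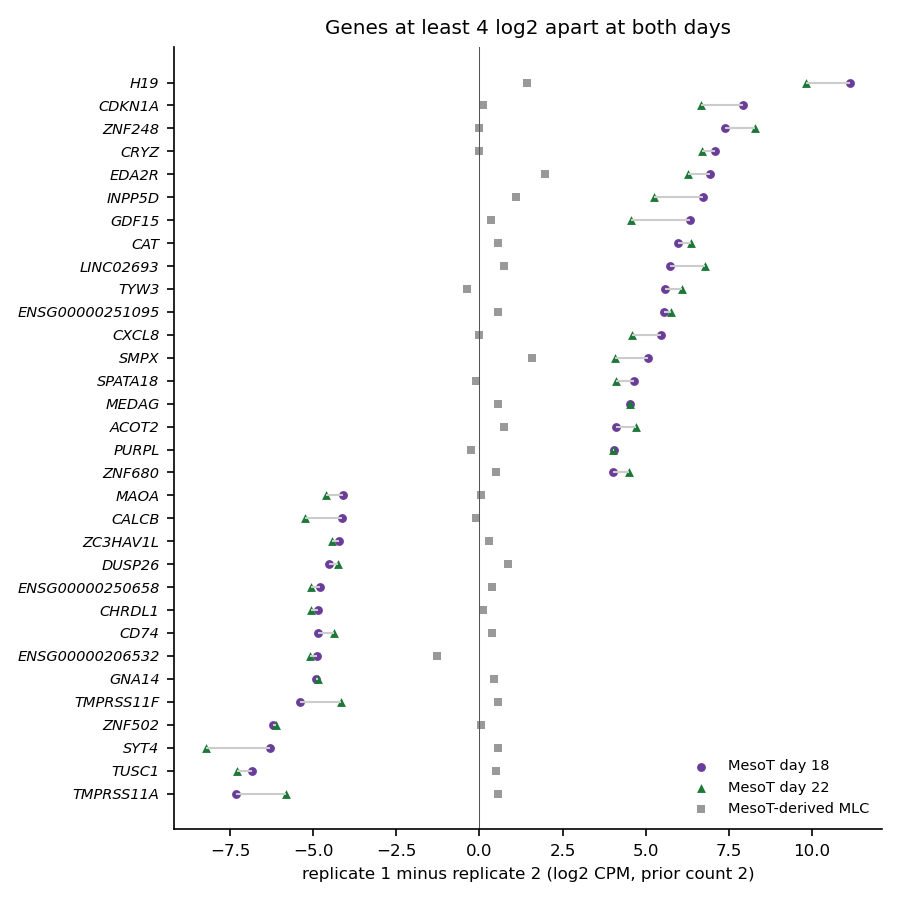
Log2 CPM difference of replicate 1 minus replicate 2 at day 18 (circles) and day 22 (triangles) for the 32 genes at least 4 log2 apart at both days, with the same difference in MesoT-derived MLC (squares). The squares lie between -1.27 and 1.98, which the choice of genes in part fixes, while the MesoT points lie beyond 4 or -4.

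Of 14 gamma protocadherins tested, adhesion proteins of which cells use few variants each, 3 passed (21.4%, against 1.02% of all genes), 2 higher and 1 lower, on a list made after values were seen. PCDHGA10 was at 34.6 and 20.4 CPM in replicate 1 and 3.04 and 2.36 in replicate 2 (3.31 ± 0.24, edgeR adjusted p = 0.0114), and PCDHGB6 at 89.2 and 75.5 against 34.4 and 23.7 (1.52 ± 0.16, adjusted p = 0.0228). PCDHGB7, next to PCDHGA10, was at 5.77 and 4.57 CPM against 42.3 and 37.2 (-2.95 ± 0.18, adjusted p = 0.00774). These genes share their last exons and how shared reads were assigned is not given, so their single values are uncertain. Of 219 called genes with a position in the reference table, 12 pairs were direct neighbours, and 10 of the pairs had the same direction; besides CRYZ with TYW3 and COL4A6 with COL4A5 they included ACTA2 with FAS, BMP6 with TXNDC5 and DDB2 with ACP2. ACTA2 and FAS lie head to head, so reads near their starts cannot be told apart without strand. No chromosome stood apart as a whole: the median log2 fold change of the 23 chromosomes ran from -0.04 to 0.07.

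No mesothelial, epithelial junction or cell cycle gene tested passed. Only 1.02% of all genes did, so a count of 0 in lists of this size lies near that share. None of 23 mesothelial genes tested did (median -0.43): WT1, a transcription factor of mesothelium, was at 32.4 and 56.9 CPM in replicate 1 and 54.7 and 94.4 in replicate 2 (-0.74 ± 0.19, edgeR adjusted p = 0.128), and UPK3B, a surface protein, at 19.4 and 22.1 against 42.5 and 40.4 (-1.001 ± 0.31, adjusted p = 0.174). UPK3B did not overlap between the replicates and WT1 did. TCF21, a factor of coelomic mesenchyme, had a log2 fold change of 0.99 (adjusted p = 0.274) and MSLN -0.93 (adjusted p = 0.531). None of 25 epithelial junction genes passed; CDH1, E-cadherin, was at 173 and 176 CPM against 165 and 217 (adjusted p = 0.75), and the keratin KRT19 at 242 and 204 against 181 and 337. Of 20 mesenchymal genes CDH11 alone passed (1.15, adjusted p = 0.0492), and VIM was at 2129 and 1746 CPM against 1286 and 942 (0.81 ± 0.25, adjusted p = 0.176). None of 24 cell cycle genes passed, with a median of -0.52 and summed levels of 904 and 1309 CPM in replicate 1 and 1427 and 1645 in replicate 2.

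In all, 18 of 34 gene lists made for this tissue had no member that passed, where 1.02% of all genes did. Among markers of other cell types, none of the pluripotency, pericyte, blood, neural, cardiac, cartilage, hepatocyte or gut lists had one. Still, only 1 of 12 pluripotency genes was higher in replicate 1 at day 18 and 1 at day 22, with a median log2 fold change of -0.91. That list summed to 145 and 123 CPM in replicate 1 against 252.5 and 248 in replicate 2. PLVAP was the 1 of 13 endothelial genes that passed, at 0.92 and 0.37 CPM in replicate 1 and 4.26 and 2.47 in replicate 2, and the endothelial list summed to 488 and 197 CPM against 221 and 194. On the list, 6 of 13 members were higher in replicate 1 at day 18 and 4 at day 22. KDR and FLT1 had log2 fold changes of 1.10 and 0.90 and did not pass. Other genes known from endothelium, outside the list and picked after their values were seen, passed in both directions. CD93, a surface receptor, was lower in replicate 1, at 0.74 and 0.37 CPM against 5.91 and 14.2. So was DLL4, a Notch ligand, at 0.07 and 0.17 CPM against 1.87 and 4.40. EDN1, which encodes endothelin 1, was higher in replicate 1. ISL1 and IGFBP3 of 13 amnion and surface ectoderm genes passed in opposite directions, SYNPO of 10 kidney genes and ACTA1 of 4 skeletal muscle genes were higher in replicate 1, and the summed amnion list stood at 4227 and 3125 CPM against 1503 and 1296. Most of that sum was IGFBP3, which binds insulin-like growth factors, at 3813 and 2755 CPM against 1193 and 773. The part of such cells in the other results was not tested.

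**Figure D5:**
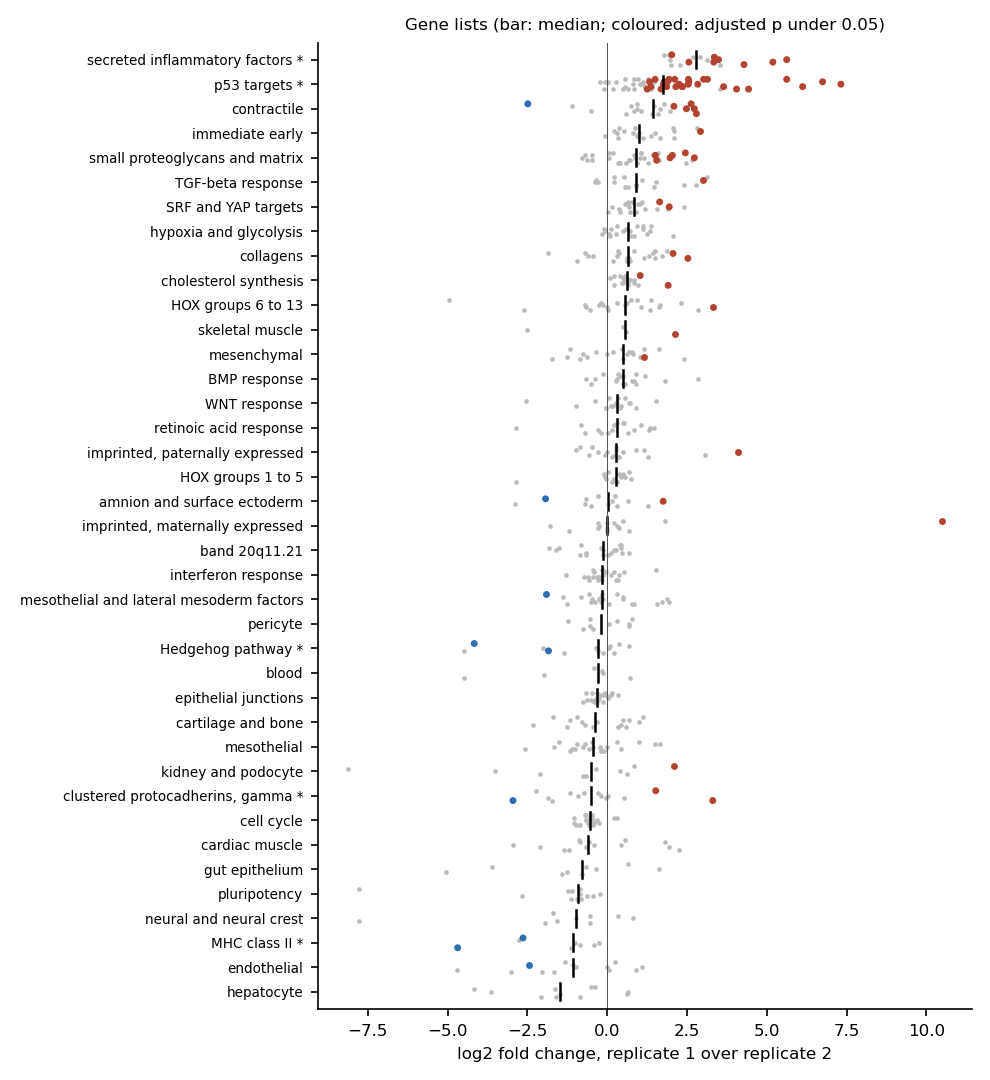
Log2 fold change, replicate 1 over replicate 2, of each member tested of 34 gene lists and of the lists marked * that were written after values were seen, with bars at the medians. Coloured points passed the test (red higher, blue lower in replicate 1); the 29 of the p53 list and the 8 of the inflammatory list are all red.

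Pooled by direction, the same genes had small median replicate differences in other human groups. In MesoT-derived MLC the 167 genes higher in MesoT replicate 1 had a median replicate difference of 0.02 log2 and the 60 lower genes 0.06, small values that the choice of the genes in part fixes. In MesoT FCS, MesoT kept in fetal bovine serum and FGF2 to passage 4, the medians were 0.24 over 160 genes and -0.08 over 52, and in MLC, made straight from splanchnic mesoderm with SB431542 and retinoic acid, -0.02 and -0.04; these are pairs of 1 library against 1 with no test, from files counted separately. Single genes and lists still differed in MesoT FCS, where 35 of the 160 were at least 1 log2 higher and 23 at least 1 log2 lower in replicate 1. The median there was 1.29 over the 6 called contractile genes, from 0.03 to 2.79, with ACTA2 at 1857 and 269 CPM. It was 1.07 over the 6 called matrix genes, from 0.54 to 1.44. Over 7 called inflammatory factors it was -1.67, from -2.89 to 0.71, and over the 29 called p53 targets 0.01. For the 160 and the 52 genes, a second deposited counting of the same day 18 samples gave 2.19 and -2.97. By level, 68.3% and 66.1% of the 227 genes lay nearer to MesoT replicate 2 than to replicate 1 in the 2 MesoT-derived MLC libraries. These were 123 and 121 of the 167 higher genes but only 32 and 29 of the 60 lower genes. The shares were 75.5% and 76.9% of 212 genes for MLC, and 50.9% and 52.4% for MesoT FCS. CDKN1A was at 19.3 and 18.0 CPM in MesoT-derived MLC, 12.6 and 12.97 in MesoT FCS and 34.3 and 30.9 in MLC, and H19 at most 2.58 CPM in the last 2 groups.

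In a fit with a replicate term for each group, added after values were seen, the difference between the terms itself passed for 53 of the 227 genes (228 of 22316 in all), H19, CDKN1A and ACTA2 among them. The MesoT term that this test uses also chose the 227 genes, so their count is a description and no independent evidence. For CDKN1A the MesoT term exceeded that of MesoT-derived MLC by 7.22 log2, for H19 by 9.05 and for ACTA2 by 3.01. For the other called genes a difference between the groups was not shown.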

How the data were processed

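RNA of 4 MesoT and 2 MesoT-derived MLC libraries was compared from 1 deposited table of whole-number counts per gene, which the authors made, per the submitters' processing notes, with TopHat2 2.0.13, Bowtie2 2.2.9 and featureCounts of Subread 1.4.2 on hg19; the strand setting is not given in the sources used here. A second deposited counting, in files of 1 library each, held day 18 MesoT, MesoT FCS and MLC. Of 56299 gene identifiers, 46802 had a symbol in the reference table. No gene coordinates are given, because that table is of GRCh38.p14; promoter windows are RefSeq's on that build.

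The counts were fitted with edgeR 4.0.16 (quasi-likelihood test, TMM scaling, filterByExpr), with a mean for each group and a replicate term within MesoT, which left 2 residual degrees of freedom. SEs were derived from the F statistic. Differences at each day are log2 CPM with a prior count of 2. limma 3.58.1 and DESeq2 1.42.0 served as alternatives. The method was tested on simulated data over the 22316 genes of this comparison. The changed genes were drawn only from those with a fitted mean above 50 counts, so recovery at lower counts was not tested. Of 50 genes changed by 1 log2 it recovered 14%, by 2 log2 92%, by 3 log2 98% and by 4 log2 100%. Of 166 calls 14 were false.

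The members and lists were chosen with earlier results of these data known. Named genes were, among called genes averaging 3 or more log2 CPM and 1 log2 or more apart at both days, the 10 with the highest and the 10 with the lowest fold change, up to 4 members of each list by p, and set markers; the filter that drops pseudogene symbols was corrected after values had been seen. Other genes named, and the lists on p53 targets, Hedgehog, MHC class II, inflammatory factors, gamma protocadherins and type IV collagen, were chosen after values were seen. Some genes are not reported here.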

Additional observations from a re-analysis of the deposited data

Results flagged for a closer look

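For 36 genes named above, the replicate difference in MesoT itself differed from that in MesoT-derived MLC (edgeR adjusted p under 0.05 for the difference between the replicate terms). The values here are log2 differences, the MesoT term minus the term of MesoT-derived MLC, so a value above 0 means a larger excess in MesoT replicate 1. Most of these genes were named because they were called in MesoT, and the same MesoT term enters here, so their number is no independent evidence. Imprinted genes gave 9.05 for H19 and 4.25 for NNAT. Among p53 targets the values were 7.22 for CDKN1A, 5.29 for GDF15, 4.53 for SPATA18, 4.31 for PURPL, 3.72 for ZMAT3, 3.60 for DRAM1, 2.60 for AEN and 2.33 for RPS27L. Contractile genes gave 3.32 for TAGLN, 3.01 for ACTA2 and 1.95 for CNN1, and matrix genes 2.60 for COL4A5, 2.31 for LOX, 2.26 for COL4A6, 2.24 for COL12A1 and 2.18 for FBLN5. Secreted signals and enzymes gave 4.73 for BMP6, 4.45 for PTGS2, 3.54 for ALDH1A1 and 2.31 for INHBA. TYW3 gave 6.79 and PCDHGA10 3.29.

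Values below 0 were found for genes lower in MesoT replicate 1: -5.11 for CHRDL1, -5.05 for CD74, -4.54 for MAOA, -3.73 for YPEL3-DT, -2.93 for HLA-DOA, -2.73 for PCDHGB7 and -2.57 for ISL1. TUSC1 gave -11.61 and ZNF502 -10.21; with 0 counts in both MesoT replicate 1 libraries these fitted values depend on the prior count and are no bound. GADD45A, BTG2 and LIF, which did not pass in MesoT, gave 3.54, 3.77 and 4.50; in the MesoT-derived MLC pair GADD45A was at 26.5 CPM in replicate 1 and 127 in replicate 2, and BTG2 at 70.5 and 374.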

How the results depend on the processing

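The 227 genes that passed, and the 225 of them at least 1 log2 apart at both days, were recounted under other settings. With RLE or upper-quartile scaling or limma voom both counts stayed within 1.5 times. Genes that passed, then those apart at both days, numbered 1536 and 672 with DESeq2, 1330 and 826 with only the 4 MesoT libraries, 499 and 391 with no day term, 127 and 127 over genes averaging 1 log2 CPM or more, 64 and 64 among genes counted alike in both countings, 45 and 45 when edgeR tested against a log2 fold change of 1, and 0 and 0 in edgeR with no filter on low counts (4398 unadjusted). Leaving out 1 library gave 0 to 1396 genes that passed: 0 without any 1 MesoT library (1526 to 3173 unadjusted in edgeR), 1046 without MesoT-derived MLC replicate 1 and 1396 without replicate 2. The count at both days was 741 to 850 without a MesoT-derived MLC library and could not be computed without a MesoT library. Without 1 MesoT library the replicate term comes from 1 library against 1, so that loss of calls was in part fixed by the design. Added after seeing the data, robust empirical Bayes gave 390 genes, and a separate replicate term for MesoT-derived MLC 1013 and 728.

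With a replicate block over all 3 groups, 1 gene passed, CAT, also apart at both days (2138 unadjusted in edgeR). The labels do not pair the numbers across groups, and the replicate difference in MesoT-derived MLC had a correlation of -0.01 with that at day 18 and -0.06 with that at day 22. Without the replicate term, day 22 against day 18 gave 0 genes in edgeR (171 unadjusted). None of 117 called genes recomputed singly turned its direction where it had a value; the test against a log2 fold change of 1 was not run gene by gene, and 106 of the 117 were tested over genes averaging 1 log2 CPM or more and 90 among genes counted alike. With 2 libraries in each replicate and 2 residual degrees of freedom, differences near 1 log2 were seldom recovered in simulated data.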
